A study of Homo sapiens with 12 samples.

Results

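The response described here is that of HLE cells transfected with a control siRNA (siCtrl) to Sorafenib (Srf), read from 4 of the 12 RNA-seq libraries of the study, 2 from cells given the vehicle DMSO and 2 from cells given the drug. HLE is an established, poorly differentiated hepatocellular carcinoma line. The other libraries came from cells transfected with siRNA against ATF4 (siATF4) or against YAP and TAZ (siY/T), each again with DMSO or Srf and 2 libraries a group, and they are used here for comparison. The sample labels give 5 µM Sorafenib and no time, while the legend for this experiment in the paper gives 6 µM and 18 h. The paper's methods speak of RNA from biological triplicates, whereas the labels hold 2 libraries a group and do not say that these came from separate cultures, so the p-values measure the spread between these libraries, which may be technical. The comparison asks what the drug changes in cells that still have YAP/TAZ and ATF4.

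Sorafenib is a multikinase inhibitor used against advanced liver cancer, and its targets include the RAF kinases at the head of the ERK cascade and receptor kinases of the VEGF, PDGF and KIT families. ERK signalling sustains a set of transcripts that report its output, among them the feedback inhibitors of the DUSP and SPRY families, ETS factors and cyclin D1. Cells under kinase inhibitor or nutrient stress can also phosphorylate the translation factor eIF2α, which lets the transcription factor ATF4 be translated in the integrated stress response, and ATF4 in turn switches on genes for amino acid import and synthesis, tRNA charging and stress signalling.

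The unit is CPM, in which the reads on a gene are scaled to 1000000 reads over all genes of the library. Of 26258 genes in the table, 13515 reached 1 CPM in 2 or more of the 12 libraries and entered the test. At the edge of this filter stood *MIR4775*, whose second highest library had 1.00 CPM and which was kept, and *LINC00115*, with 0.999 CPM, which was not. The siCtrl libraries held 53619732 and 45062847 reads on genes with DMSO and 49600994 and 49137093 with Srf. A gene was called raised or lowered at an unadjusted two-sided p under 0.05 from limma and a change of at least 0.58 on the log2(CPM + 0.5) scale, the thresholds of the paper's methods. This scale understates the change of genes near or under 1 CPM. All log2 fold changes below are Srf minus DMSO on it unless another direction is given.

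Sorafenib raised 1665 genes (12.3% of those tested) and lowered 696 (5.15%). Each of these calls also passed at a Benjamini-Hochberg adjusted p under 0.05, and in each the 2 Srf libraries lay beyond the 2 DMSO libraries, so the fold change threshold alone set the counts. Of all genes tested, 48.1% had both Srf libraries above both DMSO libraries and 36.8% had both below. The median change over all genes was 0.05. Large changes were few, with 394 genes raised and 103 lowered by at least 1, and 18 raised and 3 lowered by at least 2. The raised genes together took 39288 and 38561 CPM in the DMSO libraries and 69761 and 69818 CPM in the Srf libraries, while the lowered genes went from 79727 and 80338 CPM to 46081 and 46651 CPM. Of these, 1066 of the raised and 596 of the lowered genes had a mean of at least 5 CPM. The balance between rises and falls depended on the scaling, with rises making up 70.5% of the calls as deposited and 65.7% after TMM scaling. After quantile normalization 1125 genes were raised and 1025 lowered, so that rises made up 52.3%.

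**Figure D1:**
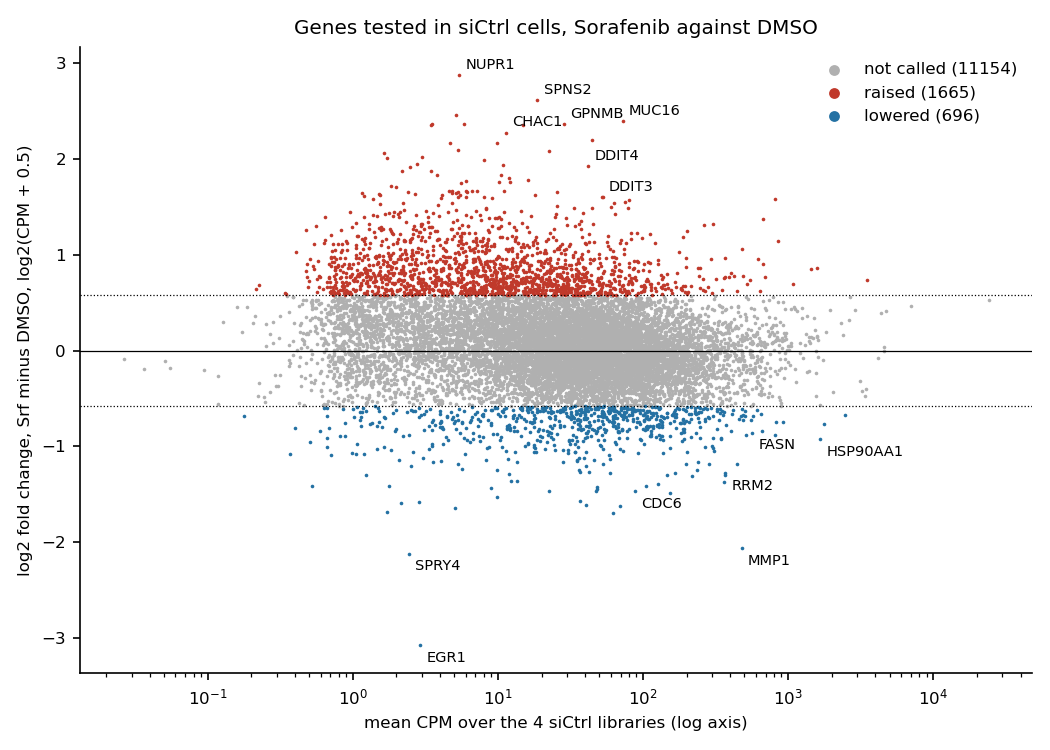
Each point is a gene tested in siCtrl cells, with its mean CPM over the 4 libraries on a log axis and its log2 fold change with Sorafenib, and the dotted lines mark 0.58 either way. Above the upper line are the 1665 raised genes and below the lower line the 696 lowered genes, and *EGR1* (-3.07), *SPRY4* (-2.12) and *MMP1* (-2.06) are the lowest of the genes labelled. After quantile normalization the counts are 1125 and 1025.

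Where the mean over the 4 libraries was at least 5 CPM, the largest rise was that of *NUPR1*, a small stress-inducible nuclear protein. It had 0.877 and 0.954 CPM in the DMSO libraries and 9.82 and 9.91 CPM in the Srf libraries, or 47, 43, 487 and 487 reads. The 10.8-fold ratio of the means was a log2 fold change of 2.87 (standard error 0.11, limma with Benjamini-Hochberg adjustment, adjusted p = 1.96e-09). In GRCh37 *NUPR1* spans bases 28544029 to 28550329 of chromosome 16, minus strand. The next was *SPNS2*, which exports the lipid signal sphingosine-1-phosphate, with 4.59 and 5.17 CPM in DMSO and 33.8 and 31.2 CPM in Srf. *MAP2K6*, a kinase that activates p38, stood at 1.16 and 1.31 CPM and then at 9.44 and 8.63 CPM. Both libraries of each group stayed close together for these genes. *MUC16*, the membrane mucin known as CA125, was noisier, with 17.1 and 29.5 CPM in DMSO and 106 and 137 CPM in Srf, and its log2 fold change of 2.40 had a standard error of 0.25. *GPNMB*, a lysosomal and membrane glycoprotein, rose from 8.71 and 9.01 to 48.6 and 47.0 CPM. The other rises among the 12 largest were those of the ADP-ribosyltransferase *ART5* (2.36), the peptide hormone *ADM2* (2.35), the glutathione-degrading enzyme *CHAC1* (2.28), the aldehyde dehydrogenase *ALDH3B1* (2.20), *PLEKHB1* (2.17), the epithelial ETS factor *ELF3* (2.10) and the integrin subunit *ITGB4* (2.08).

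The largest fall at that level of abundance was that of *MMP1*, the interstitial collagenase, on chromosome 11 from 102660132 to 102668891. It had 799 and 748 CPM in DMSO and 175 and 195 CPM in Srf, a 4.18-fold drop and a log2 fold change of -2.06 (standard error 0.12, limma, adjusted p = 2.36e-08). *SHISA2*, an endoplasmic reticulum protein that holds back WNT and FGF receptors, went from 99.9 and 90.4 CPM to 28.8 and 29.1 CPM. The falls that followed came from a few kinds of gene. *ETV5* (-1.65) is an ETS factor downstream of ERK. *MCM10* (-1.62), *CDC25A* (-1.57) and *CDC6* (-1.47) act at the start of DNA replication or of the S phase. *INSIG1* (-1.61) is a sterol-regulated gene, *CXCL5* (-1.53) is a neutrophil chemokine, and *CCN2* (-1.46) is a matricellular protein and a known target of YAP/TAZ. The others reported here were *ANGPTL4* (-1.46), an inhibitor of lipoprotein lipase, and *TIPARP* (-1.44), a mono-ADP-ribosyltransferase.

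Transcripts of the kinases that Sorafenib binds were not lowered. Of 14 on the list, 10 passed the filter, 3 were raised and 0 lowered. *BRAF* had 11.7 and 12.3 CPM in DMSO and 12.8 and 14.0 CPM in Srf, a log2 fold change of 0.15 (adjusted p = 0.112 from limma). The receptor kinases *FLT4* (1.23), which binds lymphatic VEGFs, *DDR2* (1.07), a collagen receptor, and *PDGFRB* (0.85) were raised. The VEGF receptor *KDR* had 0.0202 to 0.0611 CPM in the 4 libraries, at most 3 reads, and did not pass the filter.

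The ERK output genes had the lowest median of the 40 lists, -0.90 over 19 genes, of which 12 were lowered and 0 raised. *SPRY4*, a feedback inhibitor of receptor kinase signalling, had 4.21 and 4.33 CPM in DMSO and 0.585 and 0.611 CPM in Srf, a 7.15-fold drop. *SPRY2*, of the same family, went from 13.0 and 13.6 to 4.64 and 4.54 CPM, a log2 fold change of -1.44. The ERK phosphatase *DUSP6* was at 2.89 and 2.77 CPM and then at 0.786 and 0.712 CPM. No Srf library overlapped a DMSO library for any of the 3. The ETS factors *ETV4* and *ETV5* fell by 1.58 and 1.65, and *CCND1*, cyclin D1, fell from 316 and 302 to 121 and 127 CPM.

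Of 15 immediate early factors tested, 7 were lowered and 1 raised, with a median of -0.53. *EGR1*, a zinc finger factor induced within minutes by ERK, had 5.20 and 5.97 CPM in DMSO and 0.202 and 0.244 CPM in Srf. These are 279 and 269 reads against 10 and 12, a 25.1-fold ratio, and the log2 fold change of -3.07 on the scale used is the lowest of any gene named here. The AP-1 subunit *FOSL1* fell by 1.30 from 215 and 199 CPM. *FOS* rested on 21 and 17 reads in DMSO and 6 and 5 in Srf, so that its value moved from -0.53, short of the threshold, to -1.80 by edgeR on the reads. *JUN* had 224 and 215 CPM in DMSO and 195 and 217 CPM in Srf, and the groups overlapped. *ATF3*, a stress-induced member of the same bZIP class, rose, from 21.3 and 21.2 to 35.8 and 35.8 CPM.

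**Figure D2:**
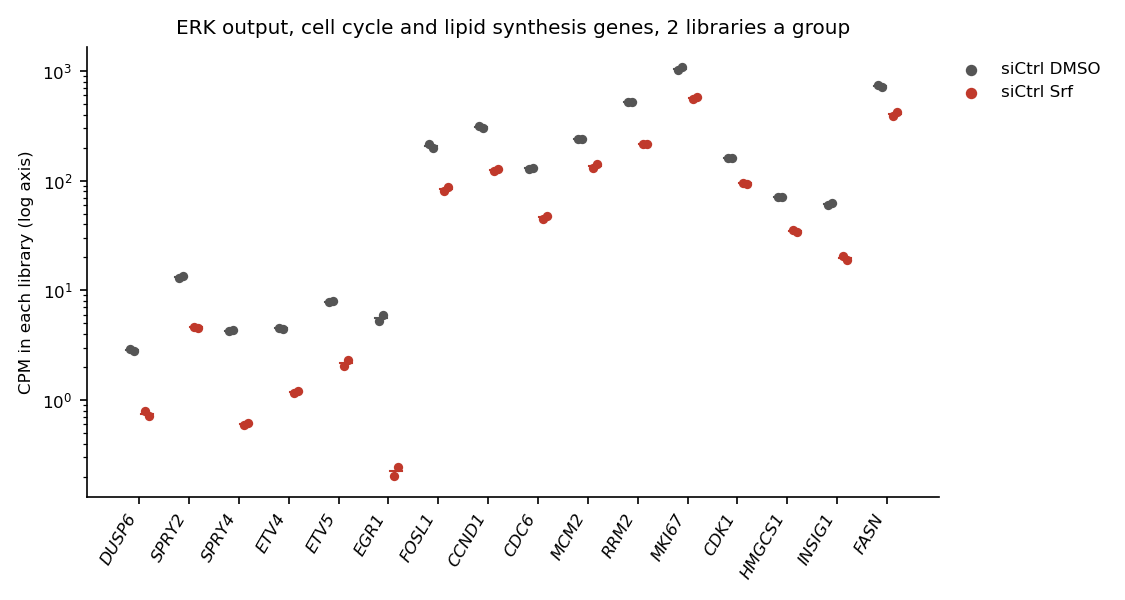
Each column shows the CPM of a gene in the 2 siCtrl DMSO libraries (grey) and the 2 siCtrl Srf libraries (red) on a log axis, with a short line at each mean. For all the genes drawn both red points lie under both grey points, with the widest gap for *EGR1* (5.20 and 5.97 against 0.202 and 0.244 CPM).

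Genes of the integrated stress response moved upward in part. Of 19 regulators tested, 8 were raised, 2 lowered and 9 not called, and the median was 0.19. *ATF4*, on chromosome 22 from 39915700 to 39918688, had 248 and 249 CPM in DMSO and 484 and 492 CPM in Srf, a 1.96-fold rise and a log2 fold change of 0.97 (standard error 0.04, limma, adjusted p = 4.61e-09). *DDIT3*, the pro-apoptotic factor CHOP, went from 26.2 and 25.3 to 80.6 and 77.6 CPM, a 3.07-fold rise. *TRIB3*, a pseudokinase that dampens ATF4 and AKT signalling, went from 44.1 and 38.5 to 112 and 121 CPM. The groups were far apart for these 3 genes. The transcripts that fell were *ATF5* (-0.80), another stress-regulated bZIP factor, and *EIF2S1* (-0.62), which encodes eIF2α itself and whose value was -0.5799 after quantile normalization, just short of the threshold. Transcripts of the 4 eIF2α kinases lay between -0.05 and 0.13.

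Genes of glutathione and amino acid supply included a few calls and many smaller changes. *CHAC1*, on chromosome 15 from 41245160 to 41248710, had 3.71 and 3.40 CPM in DMSO and 18.004 and 20.3 CPM in Srf, a 5.39-fold rise. *SLC7A11*, the cystine-glutamate antiporter, had 24.7 and 21.7 CPM and then 64.5 and 67.1 CPM (log2 fold change 1.48, standard error 0.14, limma, adjusted p = 1.44e-06). Its antisense gene overlaps it, and with the strand setting of the counting not stated their reads cannot be told apart. Its partner chain *SLC3A2* reached 0.51, short of the threshold. Beside *SLC7A11*, the glycine transporter *SLC6A9* (0.95) and the taurine transporter *SLC6A6* (0.63, and 0.57 without replicate 1 of siCtrl DMSO) rose, *SLC7A6* (-0.86), a carrier of cationic and large neutral amino acids, fell, and 10 of the 14 transporters tested were not called. At an adjusted p under 0.05 from limma alone, 6 of the 14 transporters rose and 5 fell, against 36.3% and 26.9% of all genes. The leucine carrier *SLC7A5* had 114 and 100 CPM in DMSO and 82.5 and 88.0 CPM in Srf, a value of -0.33.

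Of 16 amino acid synthesis enzymes tested, 2 were raised and 0 lowered, with a median of 0.19. The raised share of 12.5% was near the 12.3% of all genes. At an adjusted p under 0.05 from limma 9 rose and 4 fell whatever the size of the change, against 36.3% and 26.9% of all genes. The 2 were *CBS*, the first enzyme of transsulfuration, with 51.8 and 46.9 CPM in DMSO and 95.6 and 104 CPM in Srf, and *MTHFD2*, a mitochondrial folate enzyme, with 99.7 and 94.0 CPM and then 169 and 166 CPM. The serine pathway enzymes *PHGDH* and *PSAT1* were at 0.48 and 0.43, and asparagine synthetase *ASNS* at 0.37 (adjusted p = 0.0142 from limma), all under the fold threshold. Among the 20 cytosolic aminoacyl-tRNA synthetases, which charge tRNAs, *AARS1* (0.91) and *CARS1* (0.76) were raised, while *WARS1* (-0.15) and *GARS1* (0.25) were not called. The 2 calls were 10.0% of the list, near the 12.3% of all genes raised. By the adjusted p alone 12 of the 20 rose and 7 fell (limma), against 36.3% and 26.9% of all genes.

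Brakes on mTORC1, the kinase complex that couples nutrients to growth, had a median of 0.47 over 11 genes, with 3 raised and 0 lowered. *DDIT4*, which restrains mTORC1 through the TSC complex, went from 16.5 and 17.6 to 65.4 and 67.3 CPM, a 3.89-fold rise. *SESN2*, the leucine-sensing sestrin, went from 9.21 and 9.90 to 23.2 and 23.1 CPM, and the arginine sensor *CASTOR1* rose by 0.75, or 0.48 after quantile normalization, where it was no longer called. *CASTOR1* has a close paralog, so its value is uncertain. Secreted stress factors split, with 3 of 8 raised and 4 lowered. *ADM2* (2.35), *GDF15* (0.92), a cachexia-linked cytokine, and *STC2* (0.68) rose, and *ANGPTL4*, *STC1* (-1.36) and *FGF1* (-1.06) were among those that fell.

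Chaperones did not join these rises. Of 22 genes for endoplasmic reticulum chaperones and unfolded protein sensors, 0 were raised and 1 lowered, with a median of -0.15. The lowered share of 4.55% was near the 5.15% of all genes, while 12.3% of all genes were raised. At an adjusted p under 0.05 from limma 2 rose and 12 fell, against 36.3% and 26.9% of all genes. *HSPA5*, the chaperone BiP, had 966 and 920 CPM in DMSO and 837 and 829 CPM in Srf, a log2 fold change of -0.18. *XBP1* was at -0.14, *DNAJB9* at -0.16 and *HERPUD1* at 0.50, and the gene that fell was *MANF* (-0.60, and -0.56 without replicate 2 of siCtrl Srf). Cytosolic heat shock chaperones were lower, with 4 of 15 lowered, 0 raised and a median of -0.40. *HSP90AA1* went from 2117 and 2246 CPM to 1184 and 1114 CPM, and its co-chaperone *DNAJA1* and the nucleotide exchange factor *HSPH1* fell by 0.86 and 0.85. *HSPA1A*, at -0.35, shares nearly all of its sequence with *HSPA1B*, and with only uniquely mapped reads kept, its value is uncertain.

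**Figure D3:**
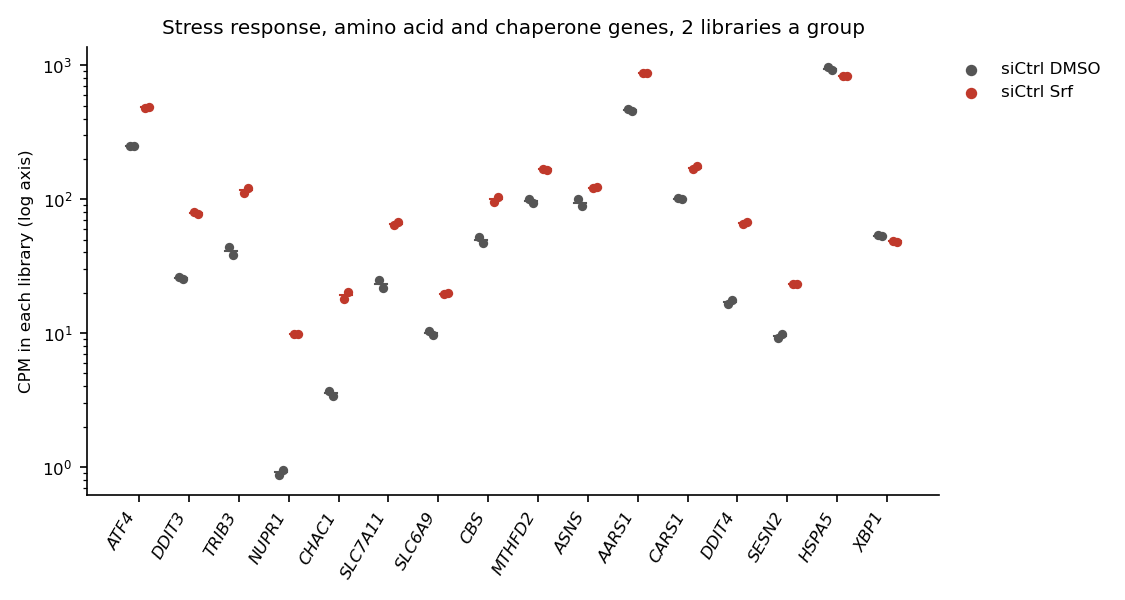
Each column shows the CPM of a gene in the 2 siCtrl DMSO libraries (grey) and the 2 siCtrl Srf libraries (red) on a log axis, with a short line at each mean. From *ATF4* to *SESN2* both red points lie above both grey points, with a small gap for *ASNS* (99.6 and 89.2 against 120 and 124 CPM), and for *HSPA5* and *XBP1* they lie below.

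Genes for DNA replication and nucleotide supply fell together. Of 30 tested, 23 were lowered and 0 raised, the median was -0.81, and all 30 had a fall at an adjusted p under 0.05 from limma, against 26.9% of all genes with such a fall and 36.3% with such a rise. *CDC6*, which loads the replicative helicase, had 128 and 131 CPM in DMSO and 45.2 and 48.1 CPM in Srf. *RRM2*, the regulated subunit of ribonucleotide reductase, had 519 and 525 CPM and then 214 and 215 CPM, and *FEN1*, which processes Okazaki fragments, had 235 and 237 CPM and then 94.5 and 100.0 CPM. The helicase subunit *MCM2* fell by 0.82. Summed over the 30 genes, the level dropped from 6302 and 6315 CPM to 3589 and 3766 CPM.

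Mitosis genes followed with smaller changes, 14 of 22 lowered, 0 raised and a median of -0.65, and again all 22 had a fall at an adjusted p under 0.05 from limma. The proliferation marker *MKI67* went from 1015 and 1080 to 553 and 583 CPM, *CDK1* from 161 and 162 to 94.9 and 94.3 CPM, and the kinesin *KIF11* and the mitotic kinase *PLK1* fell by 0.85 and 0.69. Of 15 cyclins, E2F factors and CDK inhibitors tested, 8 were lowered and 0 raised. Beside *CCND1*, these included *CCNE2* (-1.36), which drives entry into S phase, and *E2F2* (-1.16). The CDK inhibitor *CDKN1A*, p21, was lowered too, from 15.6 and 15.2 to 6.81 and 7.59 CPM, whereas *CDKN1B*, p27, was at 0.37, under the threshold. In bulk RNA, fewer cycling cells and less RNA of these genes per cell cannot be told apart.

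The sequences below show the promoters of genes that stand for the rises and the falls, from 250 bases before to 50 bases after a start, taken from RefSeq on GRCh38.p14, with the letters searched for in capitals. Of the genes tested, 10711 had at least 1 such promoter and together 15501 starts. Among the genes whose promoters could be shown, the first 4 belong to those with the largest rises, at a mean of at least 5 CPM, in which the C/EBP-ATF motif TGATGNAA was found on either strand. The other 2 are those of the replication genes with the largest falls that hold TTTGGCGC or TTTCGCGC, the letters searched for E2F, and they were added after the values were seen.
CHAC1, chr15:40953221-40953520, plus strand: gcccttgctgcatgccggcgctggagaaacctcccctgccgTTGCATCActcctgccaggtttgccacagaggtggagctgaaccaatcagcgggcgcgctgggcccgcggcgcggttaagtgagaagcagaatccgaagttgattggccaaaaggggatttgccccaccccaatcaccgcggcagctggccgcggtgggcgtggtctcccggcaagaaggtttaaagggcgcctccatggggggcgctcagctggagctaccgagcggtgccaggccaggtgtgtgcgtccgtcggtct
SORBS2, chr4:185812145-185812444, minus strand: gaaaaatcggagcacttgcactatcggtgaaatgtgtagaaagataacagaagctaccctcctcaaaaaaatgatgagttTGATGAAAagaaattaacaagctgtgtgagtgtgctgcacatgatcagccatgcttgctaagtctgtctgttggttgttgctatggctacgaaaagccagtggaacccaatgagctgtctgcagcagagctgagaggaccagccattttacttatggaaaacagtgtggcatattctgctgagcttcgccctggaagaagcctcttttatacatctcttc
ANK2, chr4:112817855-112818154, plus strand: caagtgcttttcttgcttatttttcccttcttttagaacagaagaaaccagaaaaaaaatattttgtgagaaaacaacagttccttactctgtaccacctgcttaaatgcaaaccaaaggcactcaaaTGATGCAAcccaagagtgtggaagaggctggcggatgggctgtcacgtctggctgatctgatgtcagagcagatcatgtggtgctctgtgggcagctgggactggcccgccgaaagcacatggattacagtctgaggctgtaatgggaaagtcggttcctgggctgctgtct
DDR2, chr1:162632214-162632513, plus strand: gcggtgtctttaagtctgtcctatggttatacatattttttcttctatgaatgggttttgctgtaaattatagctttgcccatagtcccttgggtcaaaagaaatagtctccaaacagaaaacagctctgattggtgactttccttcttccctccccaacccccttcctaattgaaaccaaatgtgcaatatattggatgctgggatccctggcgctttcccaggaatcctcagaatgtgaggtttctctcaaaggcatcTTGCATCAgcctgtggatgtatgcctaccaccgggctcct
CDC6, chr17:40287629-40287928, plus strand: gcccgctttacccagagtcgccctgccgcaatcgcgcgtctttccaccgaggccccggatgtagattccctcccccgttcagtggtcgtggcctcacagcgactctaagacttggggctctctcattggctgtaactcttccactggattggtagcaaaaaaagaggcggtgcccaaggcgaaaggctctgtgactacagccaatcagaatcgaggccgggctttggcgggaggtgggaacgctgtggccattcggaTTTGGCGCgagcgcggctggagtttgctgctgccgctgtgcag
GINS1, chr20:25407423-25407722, plus strand: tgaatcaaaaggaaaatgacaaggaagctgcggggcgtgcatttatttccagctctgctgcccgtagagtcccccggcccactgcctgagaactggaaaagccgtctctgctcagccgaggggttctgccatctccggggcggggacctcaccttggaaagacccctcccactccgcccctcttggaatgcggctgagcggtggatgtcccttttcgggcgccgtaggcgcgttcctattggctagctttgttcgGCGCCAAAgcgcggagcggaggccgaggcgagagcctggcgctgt

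The E2F letters stood in 5.92% of the starts of lowered genes, 0.578% of those of raised genes and 1.85% of the starts of all genes tested. Of the 26 replication genes with a promoter, 9 held them (24.3% of their starts), *MCM2* and *CDC6* among them. The C/EBP-ATF letters stood in 2.15% of the starts of raised genes, 1.52% of those of lowered genes and 2.04% over all genes. Of 16 stress response regulators with a promoter, 4 held them (14.8% of their starts), *ATF3* among them. Of the other motifs searched on both strands, the AP-1 letters TGANTCA stood in 5.41%, 5.65% and 5.09% of the starts of raised, lowered and all genes, the antioxidant letters TGACNNNGC in 15.4%, 13.5% and 14.5%, the sterol letters TCACNCCAC in 1.26%, 0.826% and 1.04%, and the ER stress element in 0.105%, 0% and 0.116%. The same 16 stress response regulators held the AP-1 letters in 4 genes (18.5% of their starts) and the antioxidant letters in 4 genes (22.2%). Over all genes the C/EBP-ATF, AP-1 and antioxidant letters stood in 2.04%, 5.09% and 14.5% of starts. A higher share among the regulators was therefore not confined to the C/EBP-ATF letters. With 4 genes holding each, these differences were not tested. Of 18 cholesterol genes with a promoter, 1 held the sterol letters. A match describes letters in a window and no binding, and the AP-1 and antioxidant letters can overlap in 1 stretch.

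Cholesterol genes were lowered as a group. Of 23 genes of synthesis and uptake tested, 15 were lowered and 0 raised, with a median of -0.62, and their summed level went from 2682 and 2639 CPM to 1704 and 1704 CPM. *INSIG1*, which holds the sterol sensor in the endoplasmic reticulum, had 60.3 and 62.2 CPM in DMSO and 20.4 and 19.0 CPM in Srf. The synthesis enzymes *IDI1* (-1.43), *HMGCS1* (-1.03) and *SQLE* (-0.82) fell. Of 12 genes of fatty acid synthesis, 2 were lowered and 0 raised, namely *FASN*, from 749 and 713 to 389 and 420 CPM, and the elongase *ELOVL6* (-0.80). *SCD*, the desaturase, was at -0.5795, just short of the threshold, and at -0.61 after TMM scaling.

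Of 26 genes of glutathione and ferroptosis, the form of cell death driven by lipid peroxidation, 3 were raised and 1 lowered. These shares, 11.5% and 3.85%, were near the 12.3% and 5.15% of all genes. The list median of -0.01 turned to 0.01 after quantile normalization. Beside *CHAC1* and *SLC7A11*, the γ-glutamyltransferase *GGT1* rose from 8.34 and 8.06 to 21.5 and 21.2 CPM. *TFRC*, the transferrin receptor through which iron enters, fell from 324 and 336 to 139 and 138 CPM. The lipid peroxide reductase *GPX4* (0.08), the acyl-CoA ligase *ACSL4* (-0.04) and *AIFM2*, known as FSP1 (-0.27), were not called. Of 19 NRF2 targets, 1 was raised, *SLC7A11*, and 1 lowered, *SRXN1* (-0.66), which repairs peroxiredoxins. *NQO1* (-0.33) and *HMOX1* (-0.04), which respond to NRF2 in many cells, were not called.

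Of 17 genes of the BCL2 family and death receptors, 3 were raised (17.6%, against 12.3% of all genes) and 0 lowered, with a median of -0.0027. At an adjusted p under 0.05 from limma, 5 rose and 6 fell, against 36.3% and 26.9% of all genes. The 3 raised genes encode BH3-only proteins, which promote cell death. *BBC3*, known as PUMA, had 3.15 and 3.24 CPM in DMSO and 7.30 and 7.57 CPM in Srf, *BMF* rose by 0.63, or 0.58 without replicate 1 of siCtrl DMSO, where it was no longer called, and *HRK* rose by 0.68, from 25 and 21 reads to 48 and 56, or 0.48 after quantile normalization, where it was no longer called. *MCL1* (-0.08), an antiapoptotic member, and the death receptor *TNFRSF10B* (0.05) were not called.

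Interferon-stimulated genes had the highest median of the lists with more than 2 members tested, 0.55 over 19 genes. Of these, 8 were raised (42.1%, against 12.3% of all genes) and 0 lowered. After quantile normalization the interferon list had a median of 0.34, under the 0.37 of the 6 Sorafenib handling and efflux genes, so this rank depended on the scaling. *IFIT1*, which binds viral RNA, went from 2.67 and 3.15 CPM to 13.0 and 13.0 CPM, *IFIT2* rose by 1.13 and *ISG15*, a ubiquitin-like modifier, by 0.74. Among the MHC class I genes *NLRC5*, their transcriptional activator, rose by 0.84, while *B2M* (0.07) did not pass. Chemokines and cytokines went the other way, with 4 of 11 lowered and 0 raised. *CCL2*, a monocyte attractant, fell from 187 and 183 to 70.3 and 69.8 CPM and *CXCL5* from 16.2 and 13.6 to 4.56 and 5.09 CPM.

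Of 21 YAP/TAZ targets tested, 4 were lowered and 1 raised, and their median of -0.02 turned to 0.05 after quantile normalization. *CCN2*, *IGFBP3* (-1.29), an IGF carrier, and *NT5E* (-0.90), an ectonucleotidase, fell, and *CCN1*, a relative of *CCN2*, was at -0.59 and at -0.49 after quantile normalization. *RBMS3*, the member that rose, was at 0.60 and at 0.57 after TMM scaling, where it was no longer called. *AMOTL2* (0.04) was not called. *YAP1* had 277 and 280 CPM in DMSO and 275 and 259 CPM in Srf, and *WWTR1*, which encodes TAZ, had 170 and 173 CPM and then 154 and 145 CPM, log2 fold changes of -0.06 and -0.20 (adjusted p = 0.495 and 0.068 from limma).

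Surface and matrix genes gave mixed pictures. Of 19 receptor kinases, adaptors and EGF family ligands, 3 were raised and 3 lowered (15.8% each, against 12.3% raised and 5.15% lowered over all genes). The receptors *ERBB3*, from 70.8 and 70.6 to 134 and 133 CPM, and *FGFR4* (0.81) and the adaptor *IRS1* (0.64) rose, and the ligands *HBEGF* (-0.89) and *EREG* (-0.64) and the EGFR inhibitor *ERRFI1* (-0.66) fell. Of 23 matrix and protease genes, 4 were raised (17.4%) and 2 lowered (8.70%). The collagen chain *COL5A1* (1.15), the urokinase *PLAU*, from 438 and 411 to 833 and 812 CPM, and the laminin chain *LAMA3* (0.81) rose, and the urokinase receptor *PLAUR* (-0.99) fell with *MMP1*. *CDH1*, E-cadherin, rose from 0.653 and 0.954 to 6.35 and 6.02 CPM, 35 and 43 reads against 315 and 296, while the mesenchymal intermediate filament *VIM* was at 0.32. Of 6 efflux transporters tested, *ABCC3* (0.83) and *ABCC4* (0.70) rose and *ABCB1* (-0.03), the classical multidrug pump, was not called. Of 29 autophagy and lysosome genes, 3 were raised, a share near the 12.3% of all genes, and 0 lowered. The raised genes were the regulator *TFEB* (0.96) and the cathepsins *CTSD* (0.78) and *CTSB* (0.70).

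Large housekeeping groups held few genes past the fold threshold. Of 78 cytosolic ribosomal proteins 0 were called, with a median of 0.09, and of 76 nuclear-encoded respiratory chain genes 0 were called, with a median of 0.03 that turned to -0.0025 after TMM scaling. The 74 mitochondrial ribosomal proteins had a median of -0.21. At an adjusted p under 0.05 from limma 45 fell and 5 rose, small as these changes were, against 26.9% and 36.3% of all genes. The 1 lowered member was *MRPL50*, whose value without replicate 2 of siCtrl DMSO was -0.5777, just short of the threshold. Hypoxia response genes had 0 calls of 13, mitochondrial proteostasis genes 1 of 12, *HSPE1* (-0.72), and TGF-β ligands and feedback genes 1 of 13, *ID3* (-0.79). Of 19 glycolysis genes, *ENO2* rose (0.81), and *LDHA* was at -0.56 and at -0.60 after TMM scaling. Of 5 metallothioneins and zinc exporters tested, *MT1F* rose (1.10), from 42 and 38 reads to 104 and 125, though its paralogs resemble it closely. By the adjusted p alone 4 of the 5 rose and 1 fell (limma), against 36.3% and 26.9% of all genes. That 1 was *MT2A*, from 338 and 326 to 249 and 266 CPM (-0.37, not called). The list summed to 499 and 482 CPM in DMSO and 456 and 482 CPM in Srf.

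**Figure D4:**
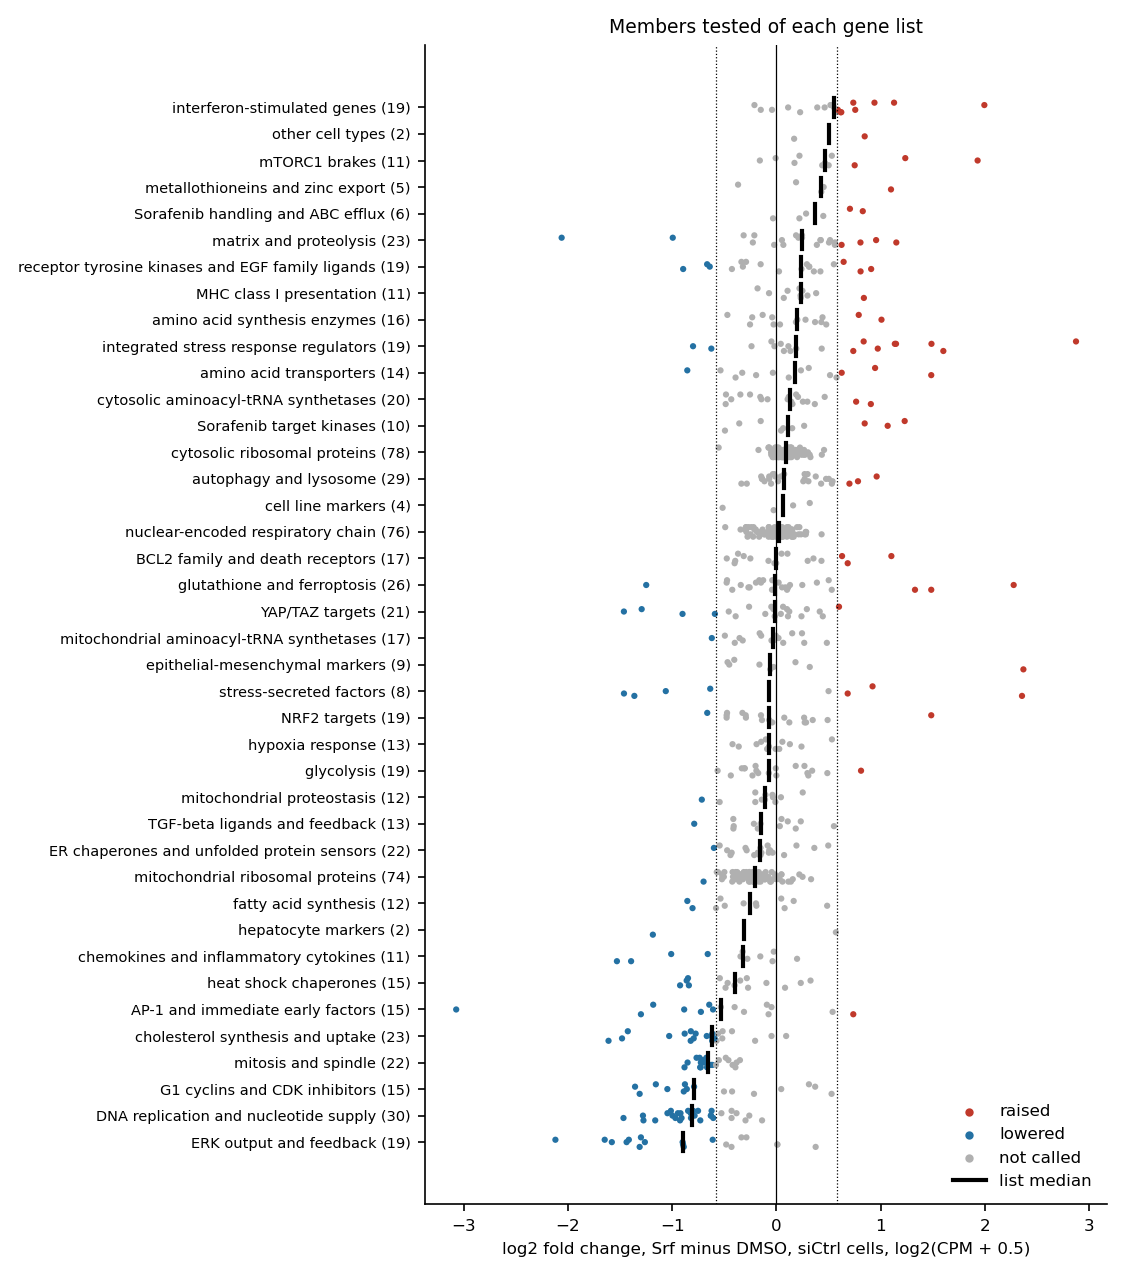
Each row is a gene list with the number of its members tested, each point is the log2 fold change of a member with Sorafenib in siCtrl cells, the black bars are list medians and the dotted lines mark 0.58 either way. ERK output (-0.90), DNA replication (-0.81), G1 cyclins (-0.79), mitosis (-0.65) and cholesterol genes (-0.62) have the lowest medians, while the respiratory chain (0.03, and -0.0025 after TMM scaling) and cytosolic ribosomal (0.09) lists lie near 0 and the mitochondrial ribosomal list lies at -0.21.

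The cells had keratin and vimentin transcripts and few of the hepatocyte markers. The keratin *KRT8* had 2284 and 2205 CPM in DMSO and 2457 and 2558 CPM in Srf, and *VIM* 2375 and 2280 CPM and then 2892 and 2916 CPM. The partner keratin *KRT18* had 1047 and 1017 CPM in DMSO and 707 and 735 CPM in Srf, a log2 fold change of -0.52 that did not reach the fold threshold (adjusted p = 1.21e-06 from limma). Of 10 hepatocyte markers, 2 passed the filter. *ALB*, albumin, was listed at 0 in the 4 libraries, where 3 reads would be 0.0559 to 0.0666 CPM, and *FGB*, the fibrinogen β chain, fell from 368 and 431 to 177 and 173 CPM. Of 10 markers of leukocytes, endothelium and stromal cells, 2 passed, *CD68* and *PDGFRB*, while *PTPRC* and *CD3E* were at 0.

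The same contrast was then set beside those in the depleted cells, which used other libraries. Sorafenib raised 768 genes (5.68%) and lowered 399 (2.95%) in siATF4 cells, and raised 788 (5.83%) and lowered 560 (4.14%) in siY/T cells. Of the 1665 genes raised in siCtrl cells, 459 (27.6%) were raised in siATF4 and 575 (34.5%) in siY/T cells, and their median change was 0.78 in siCtrl, 0.36 in siATF4 and 0.47 in siY/T cells. Of the 696 lowered genes, 111 (15.9%) were lowered in siATF4 and 350 (50.3%) in siY/T cells, with medians of -0.73, -0.23 and -0.58. Genes chosen for a large change in siCtrl libraries will tend to show a smaller one elsewhere, so the medians are given as a description. The difference between the drug effects was tested gene by gene in limma. It passed an adjusted p under 0.05 for 5553 genes (41.1%) between siATF4 and siCtrl, 2608 (19.3%) with a higher and 2945 (21.8%) with a lower effect in siATF4. Between siY/T and siCtrl it passed for 2978 genes (22%), a number that ranged from 1581 without replicate 2 of siCtrl DMSO to 4575 without replicate 2 of siY/T DMSO.

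The fall of the cell cycle genes differed most plainly. For 29 of the 30 replication genes the drug effect was higher, that is less negative, in siATF4 than in siCtrl cells, and the list median there was 0.05. The same held for 22 of 22 mitosis genes, with a median of 0.13 in siATF4 cells. In siY/T cells the medians were -0.81 and -0.72, against -0.81 and -0.65 in siCtrl cells, and the effect was higher for 2 and lower for 5 of the replication genes and higher for 0 and lower for 6 of the mitosis genes, against 7.81% and 14.2% of all genes. The starting levels were not alike. The replication genes summed to 5906 and 5984 CPM in siATF4 DMSO and 5794 and 5840 CPM in siATF4 Srf cells, near the siCtrl DMSO level, whereas the mitosis genes had 4824 and 4859 CPM in siATF4 DMSO cells, already near the 4839 and 4839 CPM of siCtrl Srf cells, against 7366 and 7578 CPM in siCtrl DMSO.

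ERK output and cholesterol genes had medians below 0 in all 3 arms, -0.90, -0.73 and -0.61 for the former and -0.62, -0.36 and -0.61 for the latter in siCtrl, siATF4 and siY/T cells. The effect in siATF4 cells was higher than in siCtrl cells for 14 and lower for 1 of the 23 cholesterol genes. For the 19 ERK output genes it was higher for 7 and lower for 4, against 19.3% and 21.8% of all genes. In siY/T cells it was higher for 1 and lower for 3 of the cholesterol genes. For the ERK output genes it was higher there for 5 and lower for 1, against 7.81% and 14.2% of all genes. Several of these counts lie near the shares of all genes. The levels before the drug differed, with the ERK output genes at a sum of 2456 and 2430 CPM in siATF4 DMSO libraries, against 1287 and 1242 CPM in siCtrl DMSO libraries. On the scale used, *DUSP6* changed by -1.42, -1.26 and -1.53 and *MMP1* by -2.06, -1.99 and -1.99, and neither difference passed the test for either gene. *DUSP6* had 0.786 and 0.712 CPM in siCtrl Srf libraries, where that scale understates a change, against 6.52 and 6.46 CPM in siATF4 Srf libraries. Its likeness between the arms is therefore uncertain. *MMP1* started from 6173 and 5446 CPM in siATF4 DMSO libraries, against 799 and 748 CPM in siCtrl DMSO libraries. Among stress genes, *DDIT3* changed by 1.60 in siCtrl, -0.11 in siATF4 and 0.91 in siY/T cells, and *TRIB3* by 1.49, -0.30 and 0.79. Both stood higher in siATF4 than in siCtrl cells before the drug, *DDIT3* at 108 and 107 CPM against 26.2 and 25.3 CPM and *TRIB3* at 70.5 and 78.0 CPM against 44.1 and 38.5 CPM. *SLC7A11* changed by 0.23 in siATF4 and 1.31 in siY/T cells, the latter not separable from the 1.48 of siCtrl cells (difference -0.18, standard error 0.20, limma, adjusted p = 0.552). The plot of the 3 arms shows these genes beside the largest rises and falls.

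**Figure D5:**
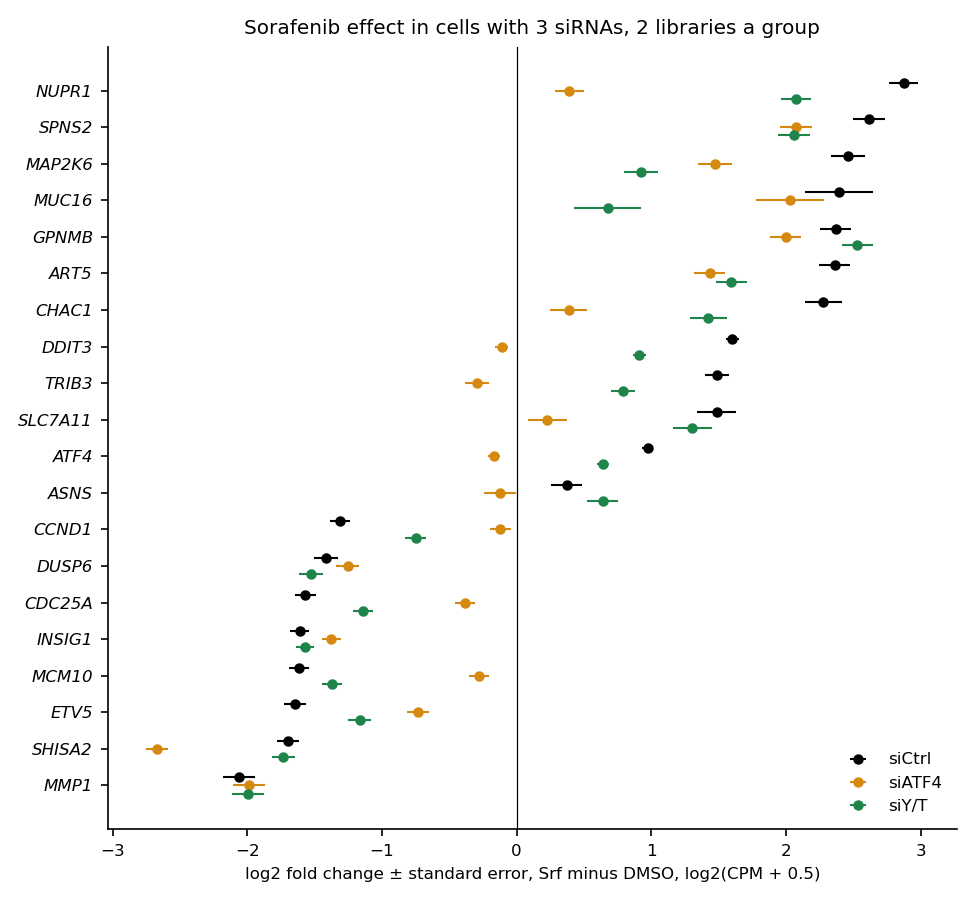
Points are log2 fold changes with Sorafenib in siCtrl (black), siATF4 (orange) and siY/T (green) cells, with bars of 1 standard error from limma, for 20 genes. *DUSP6*, *INSIG1* and *MMP1* have similar values in the 3 arms, whereas *MCM10* (-1.62, -0.28 and -1.37) and *CCND1* (-1.31, -0.12 and -0.75) lie near 0 in siATF4 cells.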

How the data were processed

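RNA was poly(A)-selected and sequenced by the authors as single-end reads of 81 bases, aligned to hg19 with STAR and counted over RefSeq exons with unique hits kept. The deposited table holds CPM, which the authors computed per library. The strand setting of the counting was not given in the sources used here. Every CPM value was a whole number of reads within 0.001 read, so that depth could be recovered.

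Genes that reached 1 CPM in 2 or more of the 12 libraries were fitted on log2(CPM + 0.5) with limma 3.58.1 (eBayes with trend, R 4.3.3) in 1 model of 6 groups, without the replicate number as a block. Calls used an unadjusted two-sided p under 0.05 and 0.58, and differences between arms a Benjamini-Hochberg adjusted p under 0.05. With 2 libraries a group the precision is limited, and all 12 libraries share 1 estimate of the spread. The siY/T DMSO pair, the least alike of the 6 groups, thus also enters the p-values of siCtrl cells. With only the siCtrl groups fitted, 1665 genes were raised and 696 lowered, as in the main fit. The members and gene lists were chosen with earlier results of these data known, and the lists are described by counts and medians only. Genes named were the 12 largest rises and falls with a mean of at least 5 CPM, up to 3 called members each way per list, fixed anchor members and the siRNA targets. Genes outside these were chosen after their values were seen.

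Alternatives were pseudocounts of 0.1 and 1, other filters, TMM and quantile normalization, a replicate block, only the groups compared, other thresholds, each library left out, and edgeR 4.0.16 and DESeq2 1.42.0 on the recovered reads. On simulated data of 12989 genes for this comparison, with 200 genes changed by 1.5 on the log2 scale, the limma step recovered 200 with 0 wrong calls. With no gene changed, among 12988 genes, limma made 1 wrong call, edgeR 9 and DESeq2 8. Of 26258 identifiers, 26111 were named from RefSeq and 24110 placed on GRCh37. Promoters came from RefSeq GRCh38.p14, and those on chromosome 8 were not shown. Some genes that the naming rule covers are not reported here. Tables were made in Python 3.11.15 with pandas 2.3.3 (on numpy 2.4.6), and plots with matplotlib 3.10.9.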

Additional observations from a re-analysis of the deposited data

Results flagged for a closer look

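For 16 of the 20 genes whose drug effects were compared between arms, at least 1 difference passed the test (limma, Benjamini-Hochberg adjusted p under 0.05), as it did for 41.1% of all genes in siATF4 and 22% in siY/T cells. Of the 20, 12 were chosen for the largest changes in siCtrl cells, which favours smaller ones elsewhere. Each value here is the log2 fold change with Sorafenib in the depleted cells minus that in siCtrl cells, so that a negative value for a raised gene is a smaller rise.

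Among the stress genes the difference between siATF4 and siCtrl cells was -2.48 for *NUPR1*, -1.89 for *CHAC1*, -1.78 for *TRIB3*, -1.71 for *DDIT3*, -1.26 for *SLC7A11*, -1.14 for *ATF4*, itself the siRNA target, and -0.49 for *ASNS*. *NUPR1* had only 0.0857 and 0 CPM in siATF4 DMSO and 0.228 and 0.193 CPM in siATF4 Srf libraries, and its difference was -1.14 by edgeR and -1.07 by DESeq2, where it no longer passed. Between siY/T and siCtrl cells it was -0.80 for *NUPR1*, -0.85 for *CHAC1*, -0.69 for *TRIB3*, -0.69 for *DDIT3* and -0.33 for *ATF4*.

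Among the other large rises it was -0.54 and -0.56 for *SPNS2*, -0.93 and -0.77 for *ART5* and -0.99 and -1.53 for *MAP2K6*, with siATF4 before siY/T, and -1.72 for *MUC16* in siY/T cells. The value of *MAP2K6* in siATF4 cells rests on 0.17 and 0.06 CPM with DMSO, and its sign turned with the counts-based tools.

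Among the falls the difference was 1.34 for *MCM10* and 1.18 for *CDC25A* in siATF4 cells and 0.43 for *CDC25A* in siY/T cells. It was 1.19 and 0.56 for *CCND1* and 0.91 and 0.48 for *ETV5*, again with siATF4 first. *SHISA2* went the other way, with -0.97 in siATF4 cells, a larger fall.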

How the results depend on the processing

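At the stricter thresholds of 0.05 for the adjusted p and 1 for the change, 394 genes were raised and 103 lowered. Without any 1 library the raised genes numbered 1641 to 1692 and the lowered genes 692 to 735. With an unadjusted p under 0.05 and 0.58 the drug effect differed for 1685 genes in siATF4 and 715 in siY/T cells, and with an adjusted p under 0.05 and 1 for 318 and 75. Leaving out 1 library gave 4187 to 4806 genes for siATF4. For siY/T it gave 1581 to 4575, with 1581 without siCtrl DMSO replicate 2, 1623 without siCtrl Srf replicate 2, 1949 without siY/T Srf replicate 1 and 4575 without siY/T DMSO replicate 2. The 2 siY/T DMSO libraries were the least alike. The standard deviation of their log2 difference over genes was 0.19, against 0.11 to 0.132 in the other groups. The cause of the range in the siY/T counts was not tested.

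With the replicate block the counts stayed at 1665 raised and 696 lowered, and the differences numbered 5456 and 2814. The deviations of same-numbered libraries had a correlation of -0.08 between siCtrl DMSO and siCtrl Srf, and of -0.282 to 0.193 over the 15 pairs of groups, so pairing by number was not shown. The difference for *MAP2K6* between siATF4 and siCtrl cells turned to 0.52 by edgeR and 0.55 by DESeq2, and the cause was not tested. Of the values of named genes under the alternatives, 2402 kept their direction and their side of the threshold, 18 newly passed it and 23 no longer did. With 2 libraries a group, changes near 0.58 and genes of few reads are the least certain.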

Other observations

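The gene groups described here were chosen after their values were seen. Of 16 circadian clock genes tested, 6 were raised and 1 lowered by Sorafenib in siCtrl cells, with a median of 0.33. *DBP*, a clock-controlled bZIP factor, had 5.04 and 5.53 CPM in DMSO and 18.8 and 19.4 CPM in Srf, a log2 fold change of 1.76 (standard error 0.11, limma, adjusted p = 3.24e-08). Its relative *HLF* rose by 1.41, *NFIL3*, a repressor that binds the same sites, by 0.85 and the period gene *PER3* by 0.79, while *CRY1*, a repressor of the core loop, fell by 0.64. *BMAL1* (-0.41) and *PER2* (-0.35) were not called.

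Of 733 long noncoding RNAs 163 (22.2%) were raised and 17 (2.32%) lowered, and of 12228 protein-coding genes 1448 (11.8%) were raised and 664 (5.43%) lowered. The difference between these shares was not tested. Of 133 families that share a symbol prefix and had at least 12 members tested, the proteasome lid and base family PSMD had the lowest median, -0.46, with 4 of 15 lowered, followed by the nucleoporins with -0.41 and 6 of 23 lowered. The highest median was that of the protocadherin α genes, 0.64 with 11 of 13 raised, which share exons, so their reads are not separate measurements. The protocadherin β genes had a median of 0.54 with 7 of 17 raised, and the collagens one of 0.49 with 8 of 22 raised.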
